A study of Mus musculus with 2 samples.

Results

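The 9 genes described here were taken by symbol from the annotation: the ligands Il1a, Il1b and Il18, the receptor antagonist Il1rn, the inflammasome sensor Nlrp3, its adaptor Pycard, the caspases Casp1 and Casp4, and the pore former Gsdmd. They are 9 of 55536 annotated genes and 9 of 22028 protein-coding genes. RNA was read by total RNA-seq after removal of ribosomal RNA, in the nucleoplasmic fraction of primary bone marrow-derived macrophages from C57BL/6J mice. The cells had received 100 ng/ml lipid A for 25 min. Both libraries, replicates 1 and 2, belong to that 1 group, and no genetic change is named for it. No untreated cells, other times or other fractions were analysed here, so every value below is a level after lipid A and none is a response to it. The labels give each library its own biological replicate number and the same donor entry. They give no sex or age, and the RNA input was 500 ng for replicate 1 and 1000 ng for replicate 2. Values with ± are means with the SD over both libraries (n = 2), which may be technical spread in part.

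Lipid A anchors lipopolysaccharide in the bacterial outer membrane and is bound by the receptor TLR4 and its partner MD-2. Macrophages answer it by transcribing Il1b and Nlrp3, a step known as priming. Interleukin-1 beta and interleukin-18 are made as inactive precursors. A sensor such as NLRP3 assembles with the adaptor ASC, the product of Pycard, and activates caspase-1, which cuts both precursors and gasdermin D. The freed end of gasdermin D forms pores in the plasma membrane, through which the cytokines leave and the cell can die by pyroptosis. The protein of mouse Casp4, usually called caspase-11, is activated by lipopolysaccharide inside the cell and cuts gasdermin D directly. Interleukin-1 alpha acts on the same receptor as interleukin-1 beta, and the Il1rn protein blocks that receptor. These are facts about proteins, whereas the data are RNA in the nucleus.

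The gene tables held 13506939 and 17932332 estimated counts in replicates 1 and 2. A second quantification, made from the reads without a genome alignment and called the alignment-free table here, held 25372491 and 26328920. All 9 macrophage markers were detected, with summed levels of 4304 and 3541 TPM (transcripts per 1000000) in replicates 1 and 2. Neutrophil markers summed to 3.82 and 3.67 TPM. Of these 8 genes 2 reached 1 TPM in both libraries, the highest was S100a9 at 1.65 TPM on average, and Ly6g had 0 counts. Dendritic cell markers summed to 3.93 and 1.50 TPM, and none of the 6 reached 1 TPM in both libraries. B cell, T and NK cell, and mast cell lists had none of their 4 genes each at 1 TPM in both libraries. The megakaryocyte list summed to 73.8 and 51.5 TPM, of which Pf4 held 59.3 TPM on average, and its part in the levels below was not tested.

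The 250 bases before the annotated start are shown for the 4 genes with the highest mean level, as context for the values that follow. The sequences are RefSeq's on GRCm38.p6, the assembly that mm10 names, each written 5′ to 3′ on the strand of its gene. Capitals mark TATAAA on the coding strand and matches on either strand to the NF-kB consensus, the motif bound by the transcription factor that TLR4 signalling activates. The Il1b window is chr2:129371140-129371389 (minus strand), the Nlrp3 window chr11:59541319-59541568 (plus strand), the Il1a window chr2:129309973-129310222 (minus strand) and the Casp4 window chr9:5308599-5308848 (plus strand).
Il1b: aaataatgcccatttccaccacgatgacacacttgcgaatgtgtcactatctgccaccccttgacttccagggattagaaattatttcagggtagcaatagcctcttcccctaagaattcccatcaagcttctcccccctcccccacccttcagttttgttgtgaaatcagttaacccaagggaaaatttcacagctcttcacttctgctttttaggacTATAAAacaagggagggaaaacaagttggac
Nlrp3: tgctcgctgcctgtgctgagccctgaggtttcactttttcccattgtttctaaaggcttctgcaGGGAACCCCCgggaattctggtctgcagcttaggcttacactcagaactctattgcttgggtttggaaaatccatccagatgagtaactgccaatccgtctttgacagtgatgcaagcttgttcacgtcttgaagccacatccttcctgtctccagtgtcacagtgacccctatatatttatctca
Il1a: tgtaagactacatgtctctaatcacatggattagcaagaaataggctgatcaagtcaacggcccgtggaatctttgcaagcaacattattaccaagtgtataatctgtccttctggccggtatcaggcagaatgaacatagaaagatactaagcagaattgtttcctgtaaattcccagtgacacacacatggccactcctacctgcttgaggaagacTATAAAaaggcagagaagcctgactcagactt
Casp4: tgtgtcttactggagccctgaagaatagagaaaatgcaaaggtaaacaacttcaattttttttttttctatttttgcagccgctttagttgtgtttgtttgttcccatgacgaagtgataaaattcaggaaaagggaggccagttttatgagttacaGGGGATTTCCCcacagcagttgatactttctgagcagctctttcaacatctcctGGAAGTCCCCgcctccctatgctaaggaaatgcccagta
Il1b and Il1a, both of which encode an interleukin-1 ligand, each had a TATAAA close to the start, at bases -31 to -26 in Il1b and -32 to -27 in Il1a. TATAAA was present in 7.59% of all 32851 windows of this length. Casp4 had matches to the NF-kB consensus at -93 to -84 and, overlapping it, at -92 to -83, with a further one on the opposite strand at -39 to -30. Nlrp3 had 1 such match, at -186 to -177 from its upstream start, and none before its downstream start. The NF-kB consensus was matched in 7.25% of all windows. The AP-1 type motif TGANTCA, on either strand and present in 6.75% of windows, was found in Il1a at -12 to -6 and in Il1rn at -141 to -135 from its upstream start. The motif AGGAAGT, bound by PU.1 and other Ets factors and present in 7.69% of windows on either strand, was found only in Pycard among the 8 members with a window, at -44 to -38 on the opposite strand. Casp1 and Il18 held none of the 4 motifs in this window. A match describes the letters and does not show that a factor was bound.

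All 9 genes were detected, which means at least 1 TPM in both libraries, against 44.5% of protein-coding genes and 22.5% of all annotated genes. With a minimum of 5 TPM the count was 8, without Pycard, against 28.6% of protein-coding genes. The median of the 9 mean levels was 63.9 TPM, against 0.610 TPM over all protein-coding genes and 9.71 TPM over the 9806 detected ones. In bulk RNA a higher level per cell and a larger share of cells with the RNA cannot be told apart.

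**Figure D1:**
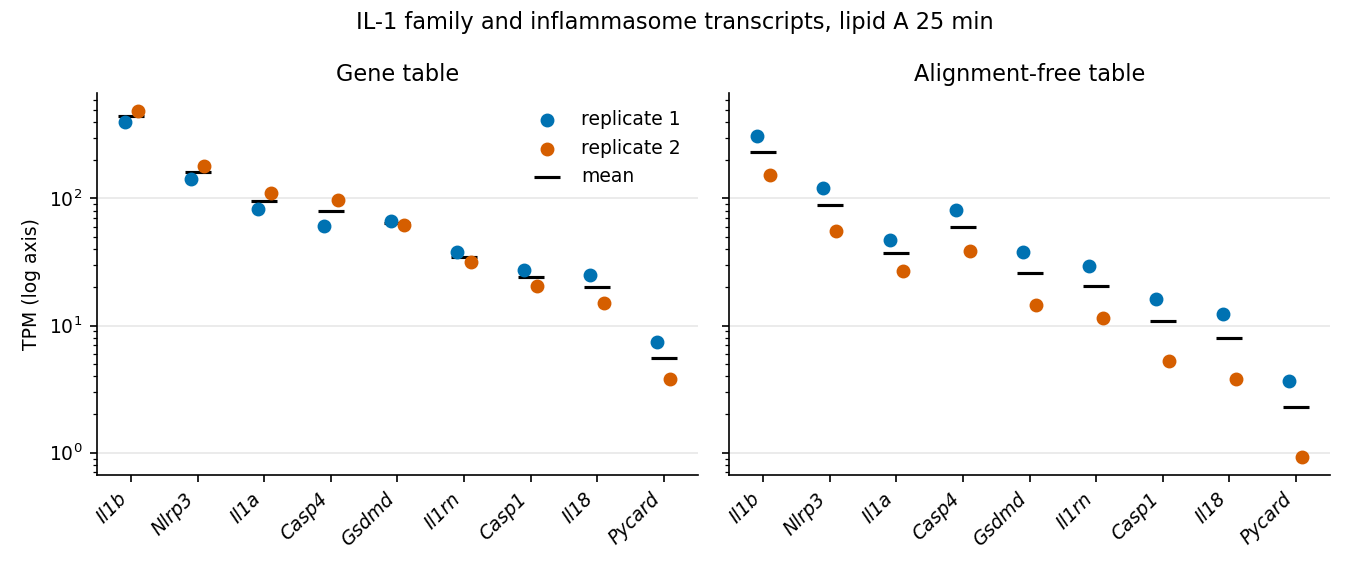
TPM of the 9 genes on a log axis in the gene table (left) and the alignment-free table (right), with points for replicates 1 and 2 and a dash for their mean. Il1b was highest and Pycard lowest in both libraries of both tables. In the alignment-free table every gene lay lower in replicate 2, where the median log2 ratio of replicate 2 over replicate 1 was -1.19 over 23020 genes.

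Gene coordinates are those of GENCODE M21 on mm10. Among the ligands Il1b stood far above the others. Il1b (ENSMUSG00000027398.13, chr2:129364570-129371139, minus strand) had 401 TPM in replicate 1 and 489 TPM in replicate 2, from 5037 and 9664 estimated counts, which placed it at rank 60 of the protein-coding genes. Il1a (ENSMUSG00000027399.1, chr2:129299610-129309972, minus strand), whose product is already active as a precursor, had 82.6 and 110 TPM from 1987 and 4505 counts and rank 423. Il18 (ENSMUSG00000039217.13, chr9:50554827-50581840, plus strand) had 24.8 and 15.1 TPM from 173 and 192 counts and rank 2810. The ranges of the 3 ligands over the libraries did not overlap. Within a library Il1b exceeded Il1a by 2.21 ± 0.0848 on the log2(TPM + 1) scale, with TPM ratios of 4.86 in replicate 1 and 4.46 in replicate 2. It exceeded Il18 by 4.45 ± 0.684, with TPM ratios of 16.2 and 32.4.

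The antagonist was present at a lower level than either interleukin-1 ligand. Il1rn (ENSMUSG00000026981.15, chr2:24336853-24351494, plus strand) had 37.8 TPM in replicate 1 and 31.9 TPM in replicate 2, from 662 and 933 counts, and rank 1557. Il1b exceeded it by 3.64 ± 0.370 on the log2(TPM + 1) scale, with TPM ratios of 10.6 and 15.3.

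The sensor and its adaptor lay far apart in TPM, Nlrp3 directly below Il1b and Pycard at the bottom of the set, places that do not hold for counts not divided by length. Nlrp3 (ENSMUSG00000032691.14, chr11:59541568-59566956, plus strand) had 143 and 181 TPM from 7321 and 15724 counts, and rank 222. Pycard (ENSMUSG00000030793.4, chr7:127989708-127993867, minus strand) had 7.41 and 3.79 TPM from 364 and 314 counts, and rank 6667. Nlrp3 exceeded Pycard by 4.68 ± 0.813 on the log2(TPM + 1) scale, a TPM ratio of 19.3 in replicate 1 and 47.9 in replicate 2. TPM divides by transcript length, and all Pycard counts in the gene table went to Pycard-201, which is 3800 bases long with 1 exon of 3258 bases. The shorter Pycard-202, of 493 bases, had 0 counts in both libraries there. In the alignment-free table Pycard had 3.64 TPM in replicate 1 and 0.919 TPM in replicate 2, the second of which is under 1 TPM.

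Of the caspases the one that responds to intracellular lipopolysaccharide was the higher in gene-level TPM. Its coding transcript alone stood lower than Casp1, as described further on. Casp4 (ENSMUSG00000033538.13, chr9:5308828-5336783, plus strand) had 60.5 TPM in replicate 1 and 97.4 TPM in replicate 2, from 740 and 1935 counts, and rank 542. Casp1 (ENSMUSG00000025888.5, chr9:5298517-5307265, plus strand) had 27.2 and 20.6 TPM from 476 and 622 counts, and rank 2356. Casp4 exceeded Casp1 by 1.66 ± 0.748 on the log2(TPM + 1) scale, with TPM ratios of 2.23 and 4.72. The genes are neighbours on the same strand with 1562 bases between them. Gsdmd (ENSMUSG00000022575.5, chr15:75862327-75867408, plus strand), the substrate of both caspases, had 66.1 and 61.7 TPM from 890 and 1365 counts, and rank 709. Its SD of 0.0703 on the log2(TPM + 1) scale was the smallest of the 9, and that of Pycard, 0.574, the largest. The median SD was 0.269 over the 9 genes and 0.331 over all detected protein-coding genes. All of these SDs include the shift between the libraries as a whole, a median log2 ratio of -0.42 for replicate 2 over replicate 1. Relative to that median, Casp1 lay closest at 0.043 and Casp4 furthest at 1.10, so the SDs do not rank the genes by their own spread.

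By mean TPM the order was Il1b, Nlrp3, Il1a, Casp4, Gsdmd, Il1rn, Casp1, Il18 and Pycard. Of the 8 steps between neighbours in that order, 7 had the same sign in both libraries and a mean difference above its SD. The exception was Casp4 over Gsdmd, at -0.13 in replicate 1 and 0.65 in replicate 2 on the log2(TPM + 1) scale, so these genes did not differ beyond their spread. The smallest steps that did were Casp1 over Il18, at 0.28 ± 0.214, and Il1a over Casp4, at 0.31 ± 0.193. In the alignment-free table Casp4 stood directly above Il1a in both libraries, below Nlrp3, and the other places were those of the mean order. There Casp4 had 80.5 and 38.3 TPM in replicates 1 and 2, and Il1a 47.2 and 26.6 TPM. With 2 libraries these statements rest on 2 differences each. The order is one per length: as counts per 1000000, Nlrp3 had 542 and 877 in replicates 1 and 2, above Il1b at 373 and 539. On that scale Pycard, at 26.9 and 17.5, was above Il18, at 12.8 and 10.7.

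The 9 genes have 33 annotated transcripts, of which 8 had 0 counts in both libraries in the aligned transcript table. Casp4 was the gene whose RNA was assigned least to its coding transcript. Transcripts annotated as not coding for protein or as targets of nonsense-mediated decay took 83.0% of its counts in replicate 1 and 88.6% in replicate 2. That share was 21.8% and 28.4% for Gsdmd, 16.6% and 25.4% for Il1b and 16.2% and 16.3% for Il1rn. Il1a, Il18, Nlrp3, Pycard and Casp1 have no transcript of such a type in the annotation, so their share of 0% is fixed by it.

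**Figure D2:**
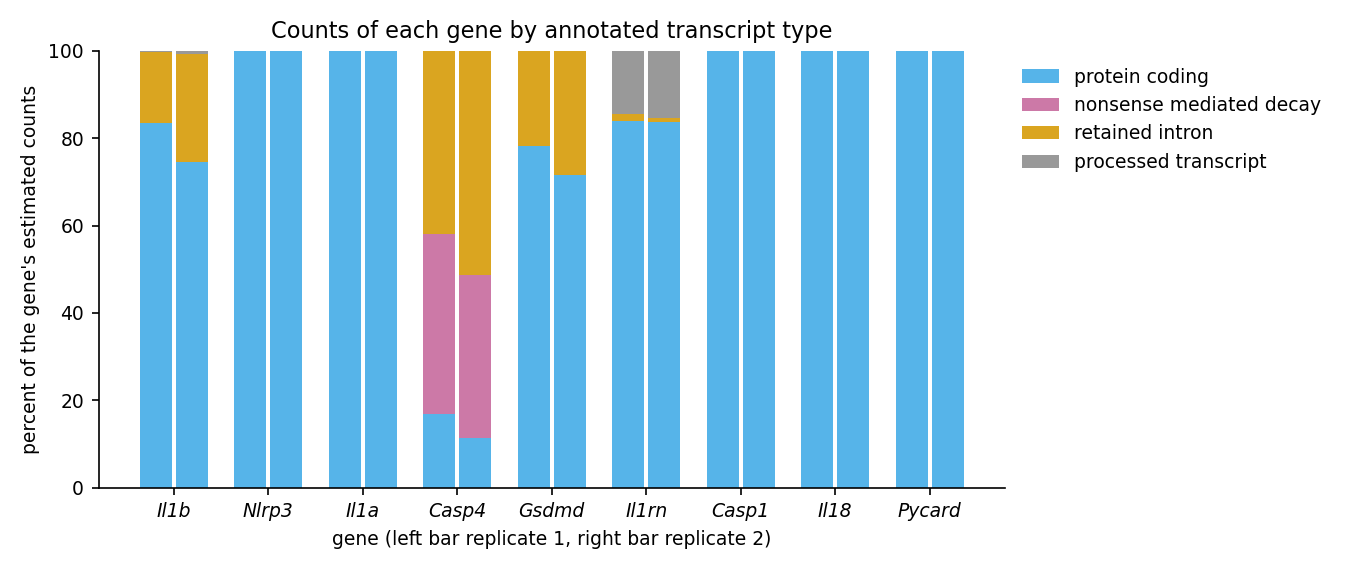
Percent of the estimated counts of each gene in transcripts of each annotated type, in replicate 1 (left bar) and replicate 2 (right bar). Casp4 is the only gene of the 9 with most of its counts outside protein-coding transcripts.

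In Casp4 the full-length coding transcript Casp4-201, of 1435 bases, had 126 and 221 counts in replicates 1 and 2, or 17.0% and 11.4% of the gene. Casp4-204, annotated as a target of nonsense-mediated decay, had 304 and 723 counts, or 41.1% and 37.4%. Of its 1901 bases, 1038 lie in intron 6 of the 8 introns of Casp4-201 (chr9:5327320-5328432), so reads from that intron would be given to it. The retained-intron transcripts Casp4-202, Casp4-207 and Casp4-205 hold 711, 277 and 228 bases of introns 7, 3 and 2. They took 20.6% and 27.2%, 17.3% and 17.7%, and 4.05% and 6.30% of the counts in replicates 1 and 2. Because several of these are shorter than the coding transcript, the mean length behind the gene's TPM was 1108 bases in replicate 1 and 1049 in replicate 2. The gene-level TPM of Casp4 is therefore mostly a level of RNA that the annotation does not assign to the coding form, and Casp4-201 alone had 7.53 and 7.69 TPM, below Casp1 in both libraries.

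Il1b counts outside the coding transcript lay mostly in a transcript that holds 1 intron. Il1b-201, the coding transcript of 1356 bases, had 4202 counts in replicate 1 and 7213 in replicate 2. Il1b-203, of 689 bases, had 825 and 2381 counts and contains the whole of intron 2 of 6, 532 bases at chr2:129369752-129370283. Il1b-202, a short processed transcript, had 10.2 and 69.5 counts, yet in the alignment-free table it held 29.4% and 30.7% of the gene's TPM. In Gsdmd, Gsdmd-201 is the coding transcript of 11 exons and had 690 and 967 counts. Gsdmd-206 contains all 99 bases of intron 9 of 10 (chr15:75866691-75866789) and had 105 counts in replicate 1 and 67.4 in replicate 2, or 11.8% and 4.94% of the gene. Gsdmd-204, with 255 bases of intron 3 and 71 of intron 8, had 67.7 and 257 counts, or 7.60% and 18.8%. The share of the one was thus higher in replicate 1 and that of the other in replicate 2.

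Counted over transcripts of the retained-intron type alone, the share was 42.0% (95% Wilson interval 38.5% to 45.5%) and 51.2% (49.0% to 53.4%) of Casp4 in replicates 1 and 2. It was 21.8% (19.2% to 24.6%) and 28.4% (26.0% to 30.8%) of Gsdmd, and 16.4% (15.4% to 17.4%) and 24.6% (23.8% to 25.5%) of Il1b. Il1rn had 1.66% (0.930% to 2.95%) and 0.965% (0.508% to 1.82%), from 11 and 9 counts. Annotation gives a transcript of this kind to 6881 protein-coding genes that had 10 or more counts in each library, and their median mean share was 17.4%, with quartiles of 5.84% and 37.0%. Casp4, at 46.6% ± 6.54, stood above the upper quartile and Il1rn, at 1.31% ± 0.493, below the lower one. Gsdmd, at 25.1% ± 4.63, and Il1b, at 20.5% ± 5.84, lay between the quartiles. The share was higher in replicate 2 in 3 of the 4 genes, against 49.4% of all such genes. As a share of TPM, which weighs short transcripts more, the means were 69.5% for Casp4, 51.3% for Gsdmd, 36.9% for Il1b and 0.717% for Il1rn. The intervals cover counting error only. Transcripts of other types that hold intron bases are left out of all these shares. In Il1rn that is the processed transcript, with 412 of its 636 bases in an intron and 14.5% and 15.4% of counts in replicates 1 and 2. In Casp4 it is the target of nonsense-mediated decay described above, with 41.1% and 37.4%. The low place of Il1rn therefore holds for the annotated type, and was not tested for all RNA with intron bases. Mature RNA that keeps an intron and RNA still waiting to be spliced cannot be told apart in these counts.

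The remaining transcript differences concern where a transcript starts. Il1rn has an upstream and a downstream first exon, which in human give the intracellular and the secreted forms of the antagonist. The transcripts with downstream starts took 61.6% of Il1rn counts in replicate 1 and 72.6% in replicate 2. In the alignment-free table they took 74.0% and 81.4%, so they held more in each library and table. That total includes the noncoding, mostly intronic Il1rn-206, with 96.1 and 143 counts, or 299 and 421 in the alignment-free table. Il1rn-206 had the most TPM of the Il1rn transcripts in each library and table. The total is therefore not a measure of the secreted form. The counts of the main pair, 243 and 247 for Il1rn-204 (upstream) and 312 and 529 for Il1rn-201 (downstream), carry posterior SDs of 26.8 to 28.9 counts in the deposited table. For the sensor Nlrp3 the tables gave opposite answers. Its upstream start, that of Nlrp3-201, took 82.6% and 69.0% of counts in the aligned table but 29.7% and 28.3% in the alignment-free table. Nlrp3-203 had 0 counts in both libraries in the aligned table, against 1091 and 1333 in the alignment-free table. Which Nlrp3 start was used in these cells cannot be read from these values. For Il18, the transcripts Il18-202 and Il18-201 are both 702 bases long, and the aligned table gave all of their counts, 144 in each library, to Il18-202. The posterior SDs were 30.4 and 16.4 counts for Il18-202 and 29.9 and 15.5 for Il18-201, so these transcripts cannot be told apart. The transcript with the most TPM was the same in both tables and both libraries for 6 of the 9 genes, the exceptions being Nlrp3, Il18 and Casp4.

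Many cytokine messengers carry ATTTA elements in the 3′ untranslated region, through which proteins such as tristetraprolin mark them for decay. The 30-base stretch with the most ATTTA is shown for the 4 highest genes, from the GENCODE M21 transcript with the longest 3′ untranslated region, with ATTTA in capitals and positions counted from the first base after the stop codon.
Il1b, bases 192 to 221: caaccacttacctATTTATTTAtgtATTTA
Nlrp3, bases 563 to 592: agagATTTAtaaaacccatttttgtATTTA
Il1a, bases 573 to 602: attttatctatgtATTTAtaaatatATTTA
Casp4, bases 199 to 228: ATTTAccaaaagagaaatttgttttATTTA
Il1b had 4 ATTTA in 459 bases, or 8.71 per kb, a density reached by 1.33% of the 19934 protein-coding genes with a 3′ untranslated region of at least 100 bases. Casp4 had 2 in 254 bases, or 7.87 per kb, reached by 1.98% of genes. Nlrp3 had 5 in 693 bases, or 7.22 per kb, reached by 2.68%, and Il1a 3 in 1101 bases, or 2.72 per kb, reached by 25.8%. The median over these genes was 1.35 per kb, and 68.3% had at least 1. By number instead of density, 29.5% of these genes had as many ATTTA as Il1b or more. That share was 49.6% for Casp4, 22.8% for Nlrp3 and 37.6% for Il1a. The same number gives a higher density in a shorter region, and the median length was 1043 bases. Il18 had 1 in 334 bases and Pycard 3 in 3004 bases, while Il1rn, Gsdmd and Casp1 had none. The letters are a description, and the decay of these RNAs was not measured.

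Several of the genes overlap a gene on the other strand. Gm14023, a noncoding gene on the plus strand, overlaps 8217 bases of Il1a and shares 222 exonic bases with it. It had 50.1 TPM in replicate 1 and 58.1 TPM in replicate 2, from 1072 and 2129 counts, below Il1a in both libraries. No source used here says whether strand was considered in counting, so reads from the shared bases of this pair cannot be told apart. Il1bos, annotated as antisense to Il1b, shares 25 exonic bases with it and had 2.17 and 2.57 TPM, far below Il1b. Gm45205 shares 485 exonic bases with Pycard and had 1.46 and 0.51 TPM, so its part in the Pycard count is uncertain in the same way. Bco2 and Tex12 overlap Il18 without shared exonic bases, at 1.42 ± 0.884 and 1.50 ± 0.742 TPM.

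**Figure D3:**
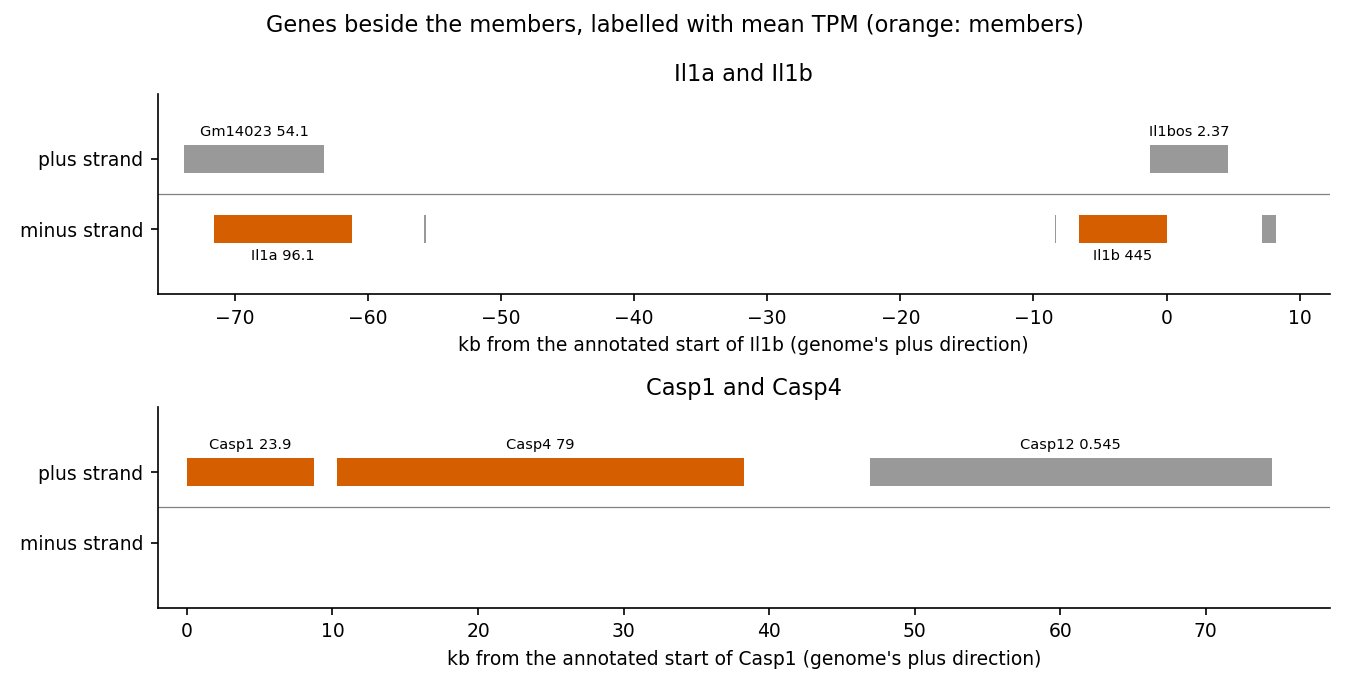
Genes that overlap or lie next to Il1a and Il1b (top) and Casp1 and Casp4 (bottom), drawn to scale in kb from the annotated start of Il1b or Casp1, with the genome's plus strand above the minus strand and the mean TPM beside each name. Members are orange, other genes grey, and genes under 0.1 TPM have no name. Casp12 stood at 0.545 TPM next to Casp4 at 79.0 TPM.

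The neighbours named next each had a lower mean TPM than the member beside them. Casp12, a caspase gene of the same cluster, had 0.43 and 0.66 TPM from 9 and 19 counts, 8646 bases beyond Casp4. On the far side of Il1a, Ckap2l had 0.885 ± 0.0778 TPM. Il1a and Il1b lie 54597 bases apart, and Gm25703 and Gm14039, which lie next to them in that gap, had 0 counts. Beside Nlrp3, Zkscan17 had 6.92 ± 0.346 TPM and Olfr222 1.14 ± 0.332 TPM. Psd4, beside Il1rn, had 22.6 ± 11.2 TPM and Sdhd, a respiratory chain gene beside Il18, 8.09 ± 3.21 TPM. Mroh6 and the pseudogene Gm9568, on either side of Gsdmd, had 0.490 and 0.140 TPM on average.

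A list of 48 other genes of the interleukin-1 and inflammasome pathway was read in the same way. Of these, 47 were matched to the tables, 31 were detected, where 44.5% of protein-coding genes are, and the median of their mean levels was 6.15 TPM. The other ligands of the family had almost no counts in the gene table. None of the 5 matched reached 1 TPM there, 4 of them (Il33 and the genes of IL-36 alpha, IL-36 beta and IL-38) had 0 counts in both libraries, and Il36g had 1 and 2 counts. In the alignment-free table Il36g had 2.92 TPM in replicate 1 and 0.679 TPM in replicate 2. The limit that 0 counts set is 3 counts, which is 0.222 and 0.167 counts per 1000000 in replicates 1 and 2.

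**Figure D4:**
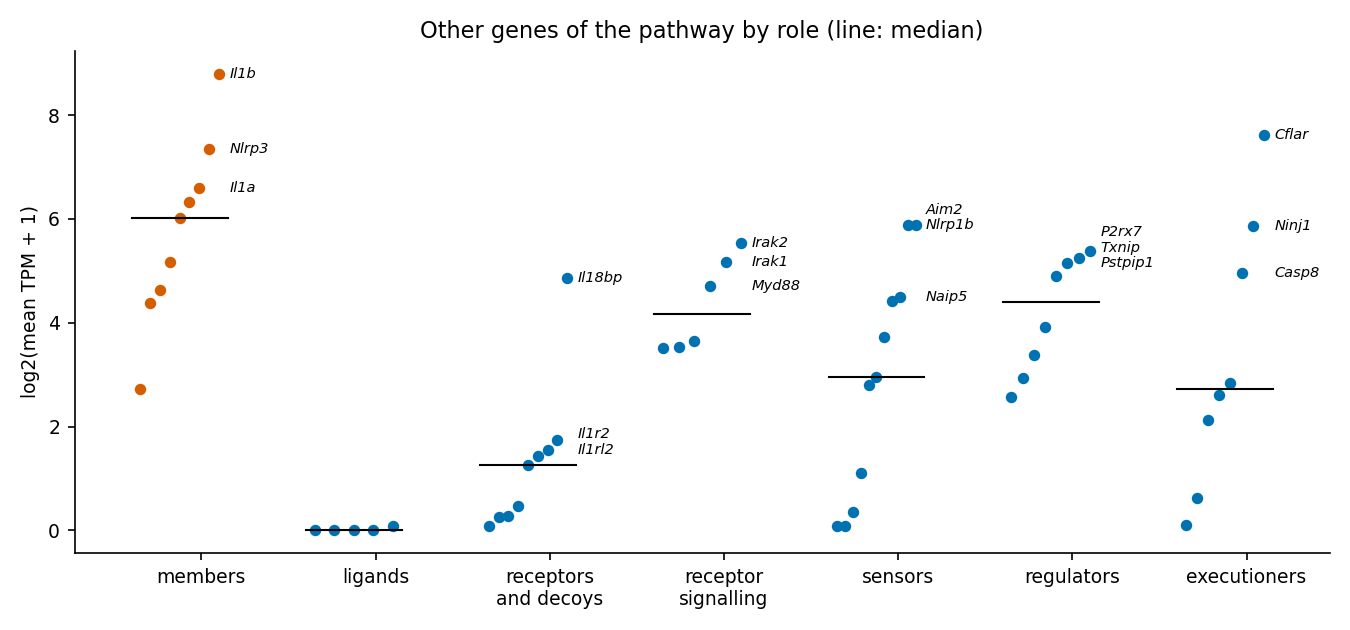
Mean level of the 9 genes (orange) and of 47 other pathway genes (blue) by role, as log2 of mean TPM plus 1, with a line at the median of each role and names for up to 3 genes with the highest level of at least 1 TPM. The other ligands had a median of 0, and Cflar at 196 TPM was the highest of the other pathway genes.

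Of the receptors and decoys 4 of 9 were detected. Il18bp, which encodes the soluble decoy that binds interleukin-18, had 32.7 TPM in replicate 1 and 23.6 TPM in replicate 2, above Il18 itself in both. The receptor for interleukin-1, Il1r1, was low at 0.27 and 0.12 TPM from 17 and 15 counts. The decoy receptor Il1r2 had 2.52 and 2.18 TPM from only 6 and 34 counts, and Il1rl2, the IL-36 receptor, 1.85 and 2.01 TPM. All 6 receptor signalling genes, which Toll-like and interleukin-1 receptors share, were detected. The highest were the kinase genes Irak2 at 45.7 ± 6.73 TPM and Irak1 at 35.2 ± 4.15 TPM, and the adaptor gene Myd88 at 25.0 ± 2.26 TPM.

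Of the inflammasome sensors 7 of 11 were detected, all below Nlrp3 in both libraries. Aim2, a sensor of cytosolic DNA, had 67.9 and 48.0 TPM in replicates 1 and 2, and Nlrp1b, the target of anthrax lethal factor in some strains, 72.3 and 43.2 TPM. Naip5, which binds flagellin, had 25.8 and 17.3 TPM. The Naip genes and the Nlrp1 genes are close copies of each other, so their counts are uncertain. All 8 regulators were detected. They were led by the ATP-gated channel gene P2rx7 at 40.8 ± 4.41 TPM, Txnip, whose product binds thioredoxin, at 36.9 ± 11.0 TPM, and Pstpip1, whose product binds pyrin, at 34.3 ± 4.65 TPM. Of the executioners of cell death 6 of 8 were detected. Cflar, which encodes the caspase-8 inhibitor cFLIP, had 195 and 197 TPM and was above Nlrp3 in both libraries. In the alignment-free table it was below Nlrp3 in both, at 110 and 43.2 TPM against 121 and 55.4 TPM. Ninj1, needed for rupture of the plasma membrane, had 57.5 ± 4.64 TPM and Casp8 had 30.1 ± 13.3 TPM.

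The libraries were last set against each other, which allows no test, since each side is 1 library. The log2 ratio of TPM + 1 in replicate 2 over replicate 1 had a median of -0.42 over the 14584 genes that had 10 or more counts in each library, and the ratios below are relative to it. Of the 9 genes 7 lay above that median, which 50.0% of all genes do by construction. Casp4 alone was over 2-fold higher in replicate 2, at 1.10, against 1.22% of all genes. None was over 2-fold lower, against 0.487% of all genes. The median of the 9 was 0.32. Il1a (0.83), Nlrp3 (0.76) and Il1b (0.71) followed Casp4, so that the 4 highest genes of the set had the 4 highest ratios, at percentiles 97.6, 97.0, 96.3 and, for Casp4, 99.1 of all genes. Gsdmd (0.32), Il1rn (0.18) and Casp1 (0.043) came next. Il18 (-0.26) and Pycard (-0.39) were lower in replicate 2. With TMM scaling Casp4 was at 1.23 and Il1a at 1.02, and Il18 lay at -0.0084, or 0.012 with DESeq2 size factors. All of these ratios are of whole genes. Before the median is subtracted, the coding transcript Casp4-201 had 7.53 and 7.69 TPM in replicates 1 and 2. Il1b-201 had 269 and 268 TPM, so the higher gene-level TPM of Casp4 and Il1b in replicate 2 lay mostly in their other transcripts. Il1a and Nlrp3 have only coding transcripts in the annotation.

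The size of these ratios depended on the table. In the alignment-free table, relative to the median there, Casp4 was at 0.14, Il1a at 0.38, Nlrp3 at 0.078 and Il1b at 0.17, and the other 5 genes lay below 0. Among those, Gsdmd, Il1rn and Casp1 had the other sign in the gene table. Signs of the smaller ratios also depended on the genes behind the median. Against the alignment-free median over the 14584 genes above, a choice made after seeing the data, Gsdmd was at 0.011 and Il1rn at 0.064, and Pycard at 0.074. Of the 33 countable genes of the pathway list 16 lay above the median, and none was over 2-fold higher or lower. Irak2 stood at 0.72 and the channel gene Panx1 at -0.94. RNA input also differed between these libraries, and its part in the ratios cannot be told apart from that of the replicate.

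**Figure D5:**
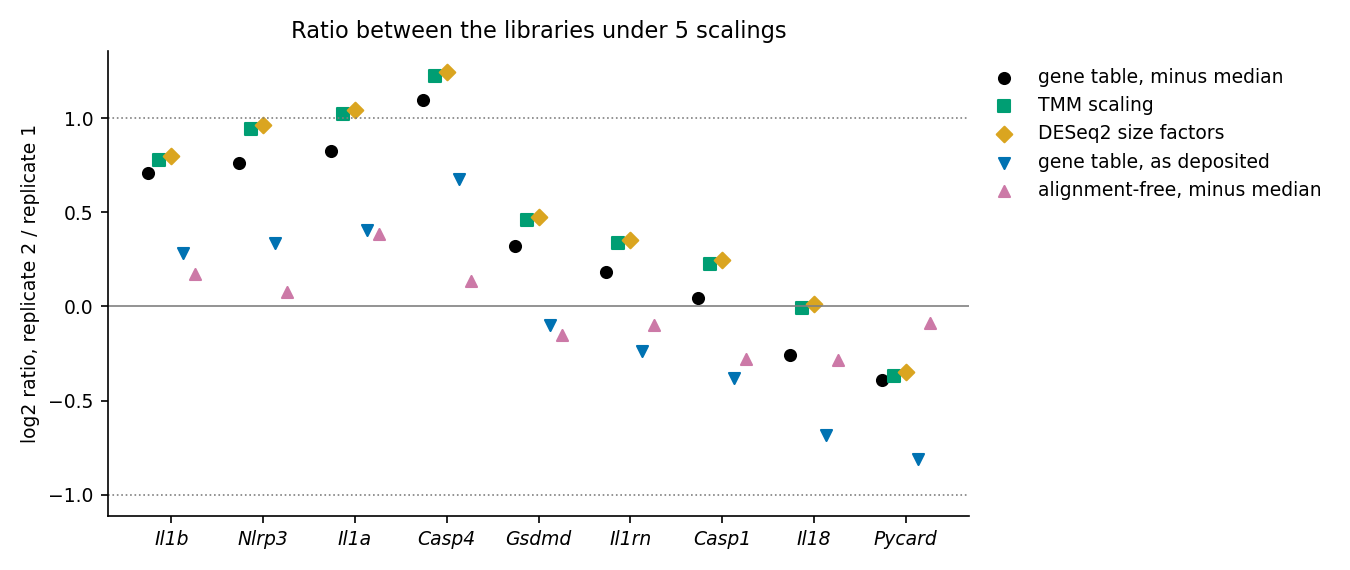
Log2 ratio of replicate 2 over replicate 1 for the 9 genes, ordered by mean level, under 5 scalings, with dotted lines at 2-fold. Casp4 lay between 0.14 and 1.25 over the scalings and Pycard between -0.81 and -0.087.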

How the data were processed

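Expected counts, TPM and each transcript's percent of its gene's TPM were made by the authors from a transcriptome alignment, per the deposited readme, on mm10 with GENCODE M21. Estimated counts and TPM of the alignment-free table were made by the authors from the reads and an index. No source used here names the quantifiers. Replicates were not pooled.

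The members and lists were chosen with earlier results of these data known. Named besides the 9 members are, in each role of the pathway list, up to 3 genes with the highest mean TPM and those at 0, plus annotated neighbours, of which 1 is not reported here. Il1r1, Panx1 and the IL-36 gene Il36g were added after their values were seen. Il36a, Il36b and Il36g were matched through RefSeq synonyms, and 1 gene of the list was not matched. A total of 26345 rows that are no annotated gene were left out (0.350% and 0.0785% of counts). Log2 values use a pseudocount of 1 TPM. Both libraries form 1 group, so there is no test and no p-value. Estimated counts were rounded for TMM (edgeR 4.0.16) and DESeq2 1.42.0 size factors. The library ratio was checked on simulated counts. Promoter windows came from RefSeq, where 8 members had one, and untranslated regions from GENCODE M21. Python 3.11.15, pandas 2.3.3 and R 4.3.3 were used.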

Additional observations from a re-analysis of the deposited data

How the results depend on the processing

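Of the 9 genes, 8 were detected with a minimum of 5 TPM and in the alignment-free table, Pycard being lost in both, and 9 with a minimum of 10 counts, with TPM rescaled without mitochondrial genes and genes under 200 bases, and without either library. Of the pathway list, 25 to 33 were detected under these alternatives. None of the 5 differences between paired genes changed sign, and the ratio of Casp4 between the libraries stayed above 0. On counts per 1000000, not divided by length, Nlrp3 stood above Il1b (mean log2 of 9.43 and 8.81) and Pycard above Il18 (4.51 and 3.67), the reverse of the TPM order. Il1b minus Il1a, 2.21 as reported, was 1.22 on counts per 1000000 and 2.60 in the alignment-free table. Il1b minus Il1rn was 3.13 and Il1b minus Il18 5.14 on counts per 1000000, and Casp4 minus Casp1 was 2.44 in the alignment-free table. The genes over 2-fold higher in replicate 2, 1 as reported, were 2 with TMM scaling and with DESeq2 size factors. The share of all genes over 2-fold higher was 1.22% as reported and 3.22% and 3.38% with these scalings. The count was 0 with TPM as deposited (0.357% of all genes) and without a minimum of counts for the median (0.699%). It was also 0 in the alignment-free table against its own median (2.71%). Against its median over genes countable in the other table, a choice made after seeing the data, the count was 0 too (3.77%). The genes with a ratio above 0, 7 as reported, were 4 with TPM as deposited. No median is subtracted in that setting, and 11.2% of all genes lay above 0. In the alignment-free table the count was 4 against its own median, but 7 against its median over genes countable in the other table. Of all genes 50.0% lay above 0 as reported and against each of these medians. The cause of these shifts was not tested. No paired analysis was possible because both libraries belong to 1 group. Several values rest on few counts, among them the Il1rn retained-intron share on 11 and 9 and Il1r2 on 6 and 34.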
